A study of Mus musculus with 30 samples.

Results

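The cells described here were VCAM1-sorted satellite cells taken from hindlimb muscle 60 h after barium chloride injury, from old mice of 22 to 24 months and from young mice of 2 to 3 months. Both groups were C57BL6 wild-type animals and were collected by the same gate, VCAM positive and negative for CD31, CD45 and Sca1. The comparison used 6 of the 30 arrays of the series, chosen by their labels, with 3 arrays of old cells and 3 of young cells. The other arrays used beside them were uninjured (quiescent) VCAM-sorted cells of both ages, young VCAM-sorted cells at 36 h and 84 h, and young cells sorted by YFP from Pax7CreER/+;ROSA26eYFP/+ mice, in which Cre driven by Pax7 marks the satellite cell lineage, with 3 arrays in each group. Each array gave log2 RMA expression values, and 19938 genes with a probe set of a single gene were tested. The labels do not say that the arrays of a group came from separate mice, so the errors and p-values measure the spread between arrays, which may be technical. The labels also name no processing batch, so age and any batch that followed it cannot be told apart.

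Satellite cells are the stem cells of skeletal muscle. They lie quiescent on the myofiber under control of Pax7, and after injury they activate, divide as myoblasts, and then leave the cell cycle, switch on Myog and the contractile genes, and fuse. Injured muscle is at the same time entered by neutrophils and macrophages, and its fibroblasts and endothelial cells expand, so a sorted population taken during regeneration can hold RNA of several cell types.

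Arrays were tight within a group. The Pearson correlation across genes was 0.998 for each pair of old arrays and 0.996 to 0.997 for pairs of young arrays, against 0.984 to 0.987 for pairs of an old and a young array. The median SD within a group was 0.089 on the log2 scale. Of the 19938 genes, 947 (4.75%) rose in old cells and 131 (0.657%) fell, where a call needed at least a 1.5-fold difference and an adjusted p under 0.05 in limma. All 1078 genes with a 1.5-fold difference passed the p threshold, and for all of them the 3 old arrays lay outside the 3 young arrays. Over all genes, the 3 old arrays lay above the 3 young arrays for 3542 genes (17.8%) and below them for 4449 genes (22.3%). The rises were also the larger changes, with 395 rises and 12 falls of at least 2-fold, 49 rises of at least 4-fold, and no fall of that size. Without the fold threshold the split was nearly even, at 2837 genes higher and 2731 lower, and the median of all genes was -0.05.

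**Figure D1:**
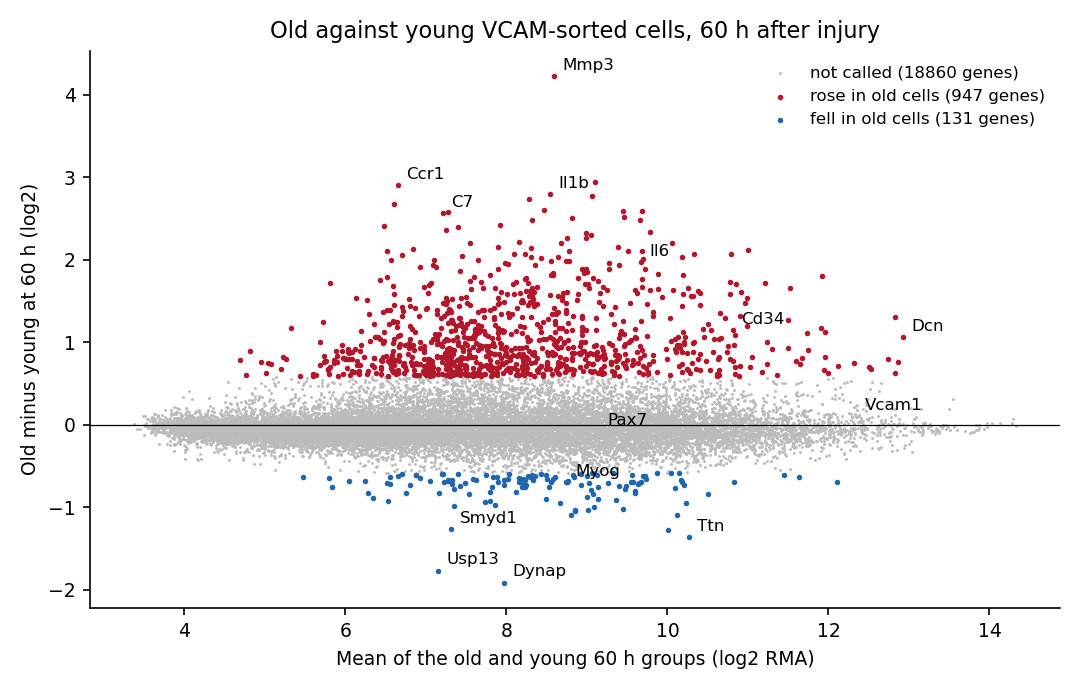
Each point is a gene, with the mean of the old and young 60 h groups on the x axis and the old minus young difference on the y axis, both on the log2 scale. The 947 rises (red) reach 4.22 for Mmp3, and the 131 falls (blue) reach -1.91 for Dynap.

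The largest rise was that of Mmp3 (probe set 10583071), which encodes stromelysin 1, a secreted protease of the extracellular matrix. Mmp3 measured 10.65, 10.73 and 10.74 in the old arrays, against 6.19, 6.79 and 6.46 in the young arrays. The groups were far apart, with a difference of 4.22 (SE 0.138, adjusted p = 2.22e-18), an 18.7-fold change. The first young array was below 6.31, the near-background level set by the 95th percentile of olfactory receptor genes. The level in old cells was close to the 10.30 of young VCAM-sorted cells at 36 h, while young cells at 84 h and uninjured young cells were at 6.55 and 6.14. Uninjured old cells already had Mmp3 at 8.17. The uninjured young level was below the background of that group (6.48), so neither the size of the age difference before injury nor its change by 60 h is fixed by these values.

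The other 19 of the 20 largest rises were Clec4e, Ccr1, Il1b, Ccl6, H2-Aa, Clec4n, Acod1, Angptl7, F13a1, Serpinb2, C7, Mrc1, Clec4d, Adh1, Ms4a4a, Cd74, Trem1, Cytip and Rgs1. Most of these genes are known from myeloid cells. Clec4e, Clec4n and Clec4d encode C-type lectin receptors of macrophages, Ccr1 a chemokine receptor, Acod1 the enzyme that makes itaconate in activated macrophages, Mrc1 the macrophage mannose receptor and Trem1 an amplifier of myeloid inflammation. Il1b, which encodes interleukin-1 beta, measured 9.85, 9.95 and 10.03 in old arrays, against 7.04, 7.37 and 7.04 in young arrays. Ccr1 measured 8.06, 7.85 and 8.39 in old arrays, against 5.20, 5.21 and 5.17 in young arrays. The young arrays of Ccr1 were below that near-background level of 6.31, so its young level was not clearly above background. C7, a terminal complement component, was likewise near background in young cells, at 5.81, 5.91 and 6.08, against 8.54, 8.57 and 8.38 in old cells. In all, 161 of the 947 rises had a young mean near background, among those named here also Clec4n, Cytip, Rgs1, Serpinb2, Trem1, Hgf and Il7r, and the sizes of such differences are limited by that floor.

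**Figure D2:**
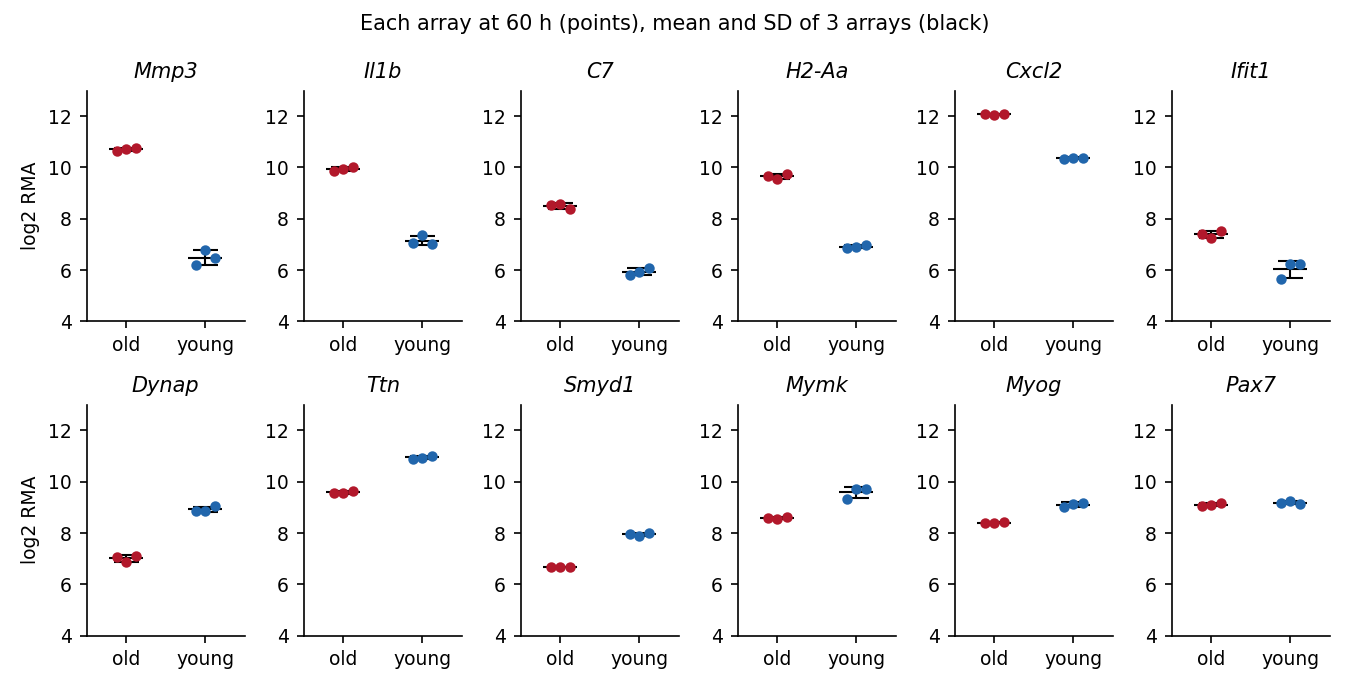
Log2 RMA values of 12 genes in each 60 h array, old cells (red) to the left of young cells (blue), with the mean and SD of 3 arrays in black. The groups do not overlap for the first 11 genes, and they overlap for Pax7.

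Genes of inflammatory signals rose broadly. Of 38 measured chemokine and cytokine genes, 30 rose and none fell, with a median of 1.34. Cxcl2, a neutrophil attractant, measured 12.07, 12.04 and 12.10 in old arrays, against 10.32, 10.38 and 10.38 in young arrays. Il6, which encodes a cytokine that acts on muscle stem cells through JAK and STAT3, measured 10.66, 10.58 and 10.75 in old arrays, against 8.55, 8.75 and 8.76 in young arrays. Both genes were also higher before injury. There 15 of the 38 rose in old cells and none fell, beside 3.04% and 4.70% of all genes. The monocyte attractants Ccl2 and Ccl7 rose by 1.58 and 1.60, and Tnf by 1.55. Ptgs2, the inducible cyclooxygenase that makes prostaglandins, rose by 1.66, and Lif, a mitogen of myoblasts, by 1.39. Macrophage markers, of which 24 of 27 rose, moved with this group, and their part in it was not tested. The 8 members not called included Csf1 at 0.35 and Ccl5 at 0.33. Of the list of factors that senescent cells secrete, 18 of 24 rose, with a median of 1.04. Beyond the cytokines they share with the list above, these were protease genes such as Plau (1.06) and Mmp13 (0.80), binding proteins of insulin-like growth factors such as Igfbp4 (1.02), and the growth factor Hgf (1.37), a mitogen that wakes satellite cells. The 1 member that fell was Igfbp2 (-0.98), a binding protein of insulin-like growth factors. None of the 7 measured inhibitors of cyclin-dependent kinases was called. Over all genes 4.75% rose and 0.657% fell, so with 7 genes this count says little. Cdkn2a, a marker of senescence, was at 7.19 in old cells and 7.49 in young cells, and senescence itself was not tested.

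Genes that answer interferon rose as a part of their list. Of 35 measured members 17 rose and none fell, with a median of 0.58. Ifit1, which binds viral RNA, measured 7.42, 7.26 and 7.53 in old arrays, against 5.64, 6.22 and 6.22 in young arrays, and was called higher, although all 3 young arrays were below the near-background level, so the size of its difference is not fixed. Iigp1 rose too, with a young mean of 6.05, also near background. Parp14 and Irgm1 rose by 1.22 and 1.00, while Mx1, Ifit2 and Usp18 differed by 0.02, -0.01 and 0.17 and were not called. The interferon-inducible Ifi200 family, whose members sense DNA, had 5 of 10 members called, all rises. Ifi207 had the largest difference of the 10, at 10.20, 10.21 and 10.34 in old arrays, against 8.16, 8.31 and 8.41 in young arrays. The interferon difference was present before injury too, where 10 of the 35 rose in old cells, beside 3.04% of all genes. Of the list Ddx58, Ifi27 and Ifih1 alone had a called change of the age difference between the uninjured state and 60 h.

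Promoters of genes that rose are shown for the binding motifs their families are known for. Each line gives the 200 bases before the RefSeq transcription start in GRCm38.p6, with matches to the motif in capitals: AP-1 for Mmp3, the NF-kB consensus for Cxcl2 and the interferon-stimulated response element (ISRE) for Ifit1.
Mmp3, chr9:7445622-7445821, plus strand: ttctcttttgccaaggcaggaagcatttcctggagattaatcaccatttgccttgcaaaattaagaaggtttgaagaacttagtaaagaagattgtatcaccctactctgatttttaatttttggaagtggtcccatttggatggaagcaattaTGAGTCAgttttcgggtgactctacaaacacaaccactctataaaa
Cxcl2, chr5:90903699-90903898, plus strand: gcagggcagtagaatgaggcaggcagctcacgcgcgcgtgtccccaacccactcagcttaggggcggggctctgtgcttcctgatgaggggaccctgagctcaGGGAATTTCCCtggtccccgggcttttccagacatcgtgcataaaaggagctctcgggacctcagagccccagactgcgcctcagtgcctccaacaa
Ifit1, chr19:34640689-34640888, plus strand: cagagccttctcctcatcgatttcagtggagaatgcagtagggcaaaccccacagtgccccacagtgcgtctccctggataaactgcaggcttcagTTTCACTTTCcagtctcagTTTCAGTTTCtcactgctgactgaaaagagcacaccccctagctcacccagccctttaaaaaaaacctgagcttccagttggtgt
The AP-1 motif searched was TGANTCA, the ISRE was GAAANNGAAA, and both strands were read. Mmp3 had its match 46 bases before the start, Cxcl2 had a pair of overlapping matches that begin 97 and 96 bases before it, and Ifit1 had 2 matches that begin 104 and 85 bases before it. No other searched motif overlapped these matches. Over windows of 250 bases before to 50 after the start, the ISRE was in 7 of the 12 interferon list members that rose and had a promoter in the table, against 3.32% of 15563 tested genes. The NF-kB consensus was in 6 of 23 chemokine and cytokine members that rose, against 4.76% of all, and AP-1 was also in 6 of those 23, against 6.97%. These matches describe letters in a window and not binding.

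Markers of several other cell types were higher in old cells. Of 27 measured monocyte and macrophage markers 24 rose, with a median of 1.64, and none of the 27 was near background in both groups. Their summed linear intensity, in units of 1000, was 23.2 to 24.3 in old arrays, against 6.97 to 7.35 in young arrays. The 3 not called were Lyz1, Cx3cr1 and Trem2. Ptprc, which encodes CD45, the antigen used to gate leukocytes out, measured 9.09, 9.19 and 9.17 in old arrays, against 7.42, 7.56 and 7.50 in young arrays. Pecam1, which encodes CD31, the endothelial antigen of the gate, rose by 1.35 as well (0.52 and not called against YFP-sorted young cells), and Vcam1, the positive marker, differed by 0.11. Ly6a, which encodes Sca1, was not measured by a probe set of a single gene. In uninjured cells 2 of the 27 macrophage markers were higher in old cells and none was lower, beside 3.04% and 4.70% of all genes. The part of these cells in the results was not tested, and in RNA of a sorted population more cells of a type cannot be told apart from more RNA per cell.

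Young cells held macrophage transcripts at other times and in the other sort. Their summed intensity was 25.6 to 26.7 in young VCAM-sorted cells at 36 h and 14.2 at 84 h, so old cells at 60 h lay near the young level at 36 h. In young YFP-sorted cells at 60 h the sum was 12.1 to 12.6, above the young VCAM-sorted cells. The same 3 old arrays were also set against the YFP-sorted cells, where 805 genes (4.04%) rose and 184 (0.923%) fell, with a median of -0.04 over all genes. By the level of Xist, given below, the sex of the mice differed too, so age, sort and sex cannot be told apart there. In that comparison 20 of the 27 macrophage markers were higher in old cells, with a median of 0.97. Lymphocyte and neutrophil markers were mostly at background, with 12 of 15 T and NK markers, 6 of 11 B markers and 9 of 14 neutrophil markers near background in both groups. The calls among them were the rises of Il7r (1.92) and Lcn2 (1.74). Pericyte and Schwann cell lists had 6 of 14 and 3 of 9 members that rose, the adipocyte list 1 of 9, with a median of -0.04, and the erythroid list none of 3.

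Part of the matrix genes and connective tissue markers rose. Of 41 measured extracellular matrix genes 22 rose and none fell, with a median of 0.67. Mmp2, which encodes gelatinase A, measured 11.07, 11.08 and 11.10 in old arrays, against 9.40, 9.43 and 9.47 in young arrays, and Lox, the collagen cross-linking oxidase, rose by 1.32. Col6a1, Col6a2 and Col6a3, the chains of collagen VI, which is part of the satellite cell niche, rose by 0.92, 0.74 and 0.80. The fibrillar collagens Col1a1, Col1a2 and Col3a1 differed by 0.53, 0.44 and 0.37, under the fold threshold. Of the tenocyte markers 8 of 10 rose, among them Angptl7 (2.59), Fmod (1.58) and Tnmd (1.00). Before injury 6 of the 10 were higher in old cells and 1 was lower, beside 3.04% and 4.70% of all genes. Chodl, also a satellite cell marker, is on this list. Of the fibroblast markers 8 of 20 rose, with Dcn at 13.46, 13.47 and 13.45 in old arrays, against 12.39, 12.39 and 12.41 in young arrays.

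The summed intensity of the tenocyte markers was 20.9 to 21.4 in old arrays, against 8.38 to 8.97 in young arrays. It was 37.47 to 38.04 in young cells at 36 h and 2.69 to 2.83 in young YFP-sorted cells at 60 h. The fibroblast markers summed to 35.9 in old arrays, against 21.6 to 22.8 in young arrays, with 63.0 to 64.7 in young cells at 36 h. Of the endothelial markers 8 of 15 rose, with sums of 4.05 to 4.14 in old arrays, against 2.53 to 2.62 in young arrays. In young YFP-sorted cells the endothelial sums were 3.27 to 3.43, above those of young VCAM-sorted cells, and 3 of the 15 rose against them, with a median of 0.34. The VCAM gate thus held more of these transcripts in old than in young cells, and at 60 h the lineage-marked young cells held least of the tenocyte ones. Their part in the matrix result was not tested.

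**Figure D3:**
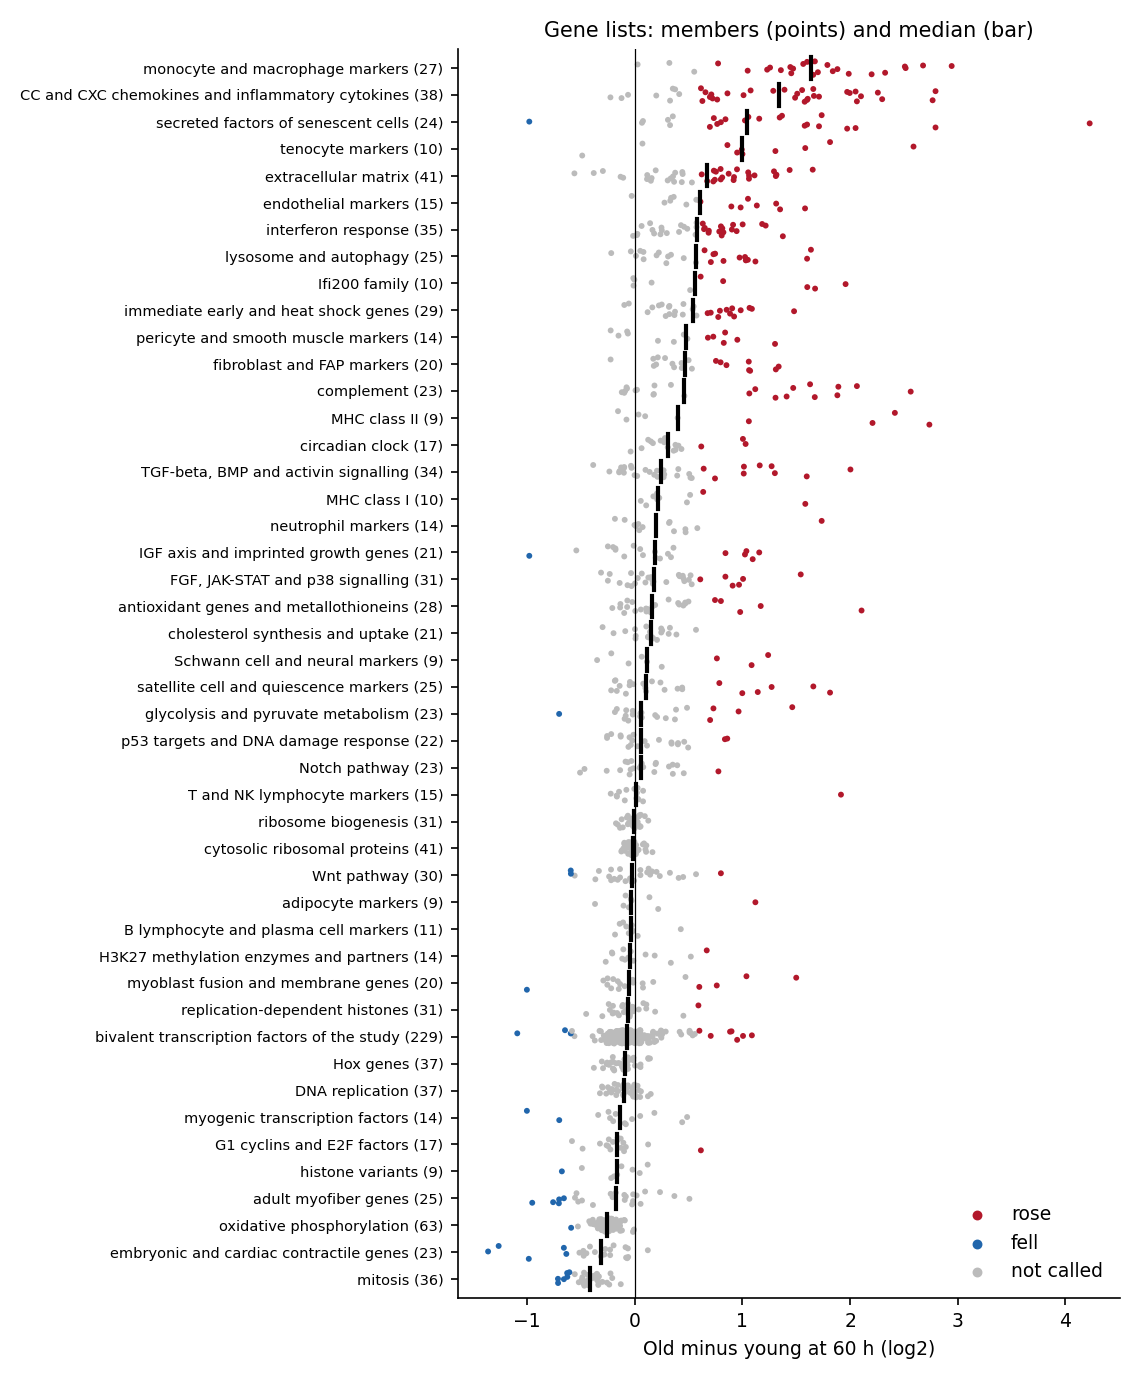
Old minus young differences at 60 h (log2, x axis) of the measured members of each gene list with at least 9 of them, ordered by median (black bar), with the number of measured members in parentheses. Points are genes, coloured by call; macrophage markers have the highest median, 1.64, and mitosis genes the lowest, -0.42.

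Satellite cell markers did not move as a block. Of 25 measured members 6 rose and none fell, with a median of 0.11. Pax7, the transcription factor that specifies satellite cells, measured 9.05, 9.09 and 9.18 in old arrays, against 9.18, 9.24 and 9.15 in young arrays, and the groups overlapped. Calcr, the calcitonin receptor of quiescent cells, measured 7.89, 7.82 and 7.97 in old arrays, against 6.65, 7.02 and 7.01 in young arrays. Cd34, a surface sialomucin of quiescent cells, measured 11.33, 11.40 and 11.41 in old arrays, against 10.23, 10.23 and 10.25 in young arrays. These levels were 2.00-fold and 2.21-fold higher in old cells, and Chodl, Adgrf5, Chrdl2 and Rgs2 rose by 1.81, 1.66, 1.27 and 0.79, of which Rgs2 was not called against young YFP-sorted cells (0.23). Myf5, a marker of committed cells, differed by 0.44 and Myod1 by -0.20, and neither reached the fold threshold. Pecam1 and the endothelial list moved with Cd34 and Adgrf5, which endothelial cells also express.

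For this list the age difference ran the other way before injury. In uninjured cells 8 of the 25 were lower in old cells and none was higher, beside 4.70% and 3.04% of all genes. At 60 h 15 of the 25 had a higher age difference than before injury and 1 a lower one. Over all genes the age difference was higher at 60 h for 1358 (6.81%) and lower for 430 (2.16%), a split of 1192 and 646 after quantile normalization and of 1016 and 742 with arrays centred on their medians. Calcr was at 11.19 in old and 12.03 in young uninjured cells, so its age difference changed by 1.83 (SE 0.120, adjusted p = 5.4e-12). Chodl changed by 2.51 and Cd34 by 1.52. The Notch targets Hey1, Hey2 and Heyl were lower in old uninjured cells, with differences of -0.88, -0.76 and -1.34, and at 60 h differed by -0.01, 0.05 and 0.08. The Notch pathway keeps satellite cells quiescent. Of its 23 measured genes 1 was called at 60 h, the rise of the ligand gene Jag1 (0.78), beside 4.75% of all genes that rose. Against young YFP-sorted cells 1 of the 23 rose and 3 fell, beside 4.04% and 0.923% of all genes. Foxo1 and Nfat5, transcription factors of quiescence and of osmotic stress, rose by 0.67 and 0.60, but neither was called without the first young array (0.58 for each), nor Nfat5 without the second (0.56), nor either against young YFP-sorted cells (0.49 and 0.50). By contrast, Foxo3, Gli2 and Hfe differed by 0.42, -0.04 and 0.33 and were not called.

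Genes of muscle differentiation were 7 of the 20 largest falls (Ttn, Smyd1, Chrng, Mymk, Myh3, Rbm24 and Tnnt3). Ttn (probe set 10483871), which encodes the giant sarcomere protein titin, measured 9.55, 9.55 and 9.64 in old arrays, against 10.89, 10.93 and 11.01 in young arrays, a difference of -1.36 (SE 0.051, adjusted p = 2.08e-17). Smyd1, a methyltransferase needed to build sarcomeres, measured 6.70, 6.67 and 6.68 in old arrays, against 7.96, 7.89 and 7.98 in young arrays. Mymk, which encodes the fusion protein myomaker, measured 8.60, 8.55 and 8.61 in old arrays, against 9.32, 9.72 and 9.71 in young arrays. In these 3 genes every old array was below every young one. Myog (probe set 10349993), the transcription factor that starts terminal differentiation, measured 8.40, 8.39 and 8.43 in old arrays, against 9.01, 9.13 and 9.18 in young arrays, a difference of -0.70 (SE 0.067, adjusted p = 3.64e-09). Embryonic myosin Myh3 (-0.98), the fetal acetylcholine receptor subunit Chrng (-1.03), the fast troponins Tnnt3 (-0.95) and Tnni2 (-0.76), and Rbm24 (-0.96), a splicing regulator of muscle genes, fell as well.

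Counted by list, 5 of 23 embryonic and cardiac contractile genes fell and none rose, with a median of -0.31, and 5 of 25 adult myofiber genes fell, with a median of -0.18. Against young YFP-sorted cells 13 of the 23 embryonic and cardiac genes and 6 of the 25 adult genes fell, and 1 adult gene rose, beside 0.923% of all genes that fell and 4.04% that rose there. Of the myogenic transcription factor list, which also holds Mymk, 2 of 14 fell, Myog and Mymk, and Myf6 and Pax3 differed by -0.02 and -0.09. In young cells these genes climbed with time, with Myog at 8.27, 9.11 and 11.60 and Ttn at 7.88, 10.94 and 12.09 at 36 h, 60 h and 84 h. The old means at 60 h, 8.41 for Myog and 9.58 for Ttn, lay between the young means at 36 h and 60 h. Myog and Mymk were also lower in old cells before injury, with differences of -1.04 and -0.62, while the age difference of Ttn before injury was 0.11 and changed by -1.47 (SE 0.071, adjusted p = 1.58e-14). Of 20 measured myoblast fusion and membrane genes, 4 rose and 1, Mymk, fell, with a median of -0.06. Over all genes 4.75% rose and 0.657% fell. Dmd, which encodes dystrophin, was among these rises, at 8.02 in old cells, against 6.52 in young cells. In uninjured cells Dmd was at 11.16 in old and 11.19 in young.

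The rest of the 20 largest falls were Dynap, Usp13, Lrrn1, Slc25a13, Sox11, Depdc1a, St8sia2, Atp1b1, Igfbp2, Cxadr, Slc24a3, Mir15b and Ociad2. Dynap, named for a dynactin-associated protein, had the largest fall, at 7.06, 6.86 and 7.11 in old arrays, against 8.87, 8.85 and 9.05 in young arrays. Usp13, a ubiquitin protease, measured 6.26, 6.22 and 6.32 in old arrays, against 7.98, 8.09 and 8.03 in young arrays, so that its old level was about at background. Lrrn1, a leucine-rich repeat protein of neurons, fell by 1.27 at 60 h and was 1.23 lower in old cells before injury.

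Mitosis genes were all lower in old cells, by small amounts. Of 36 measured members 6 fell (Aurka, Cenpf, Cenpe, Hmmr, Nusap1 and Bora), beside 0.657% of all genes. All 36 differences were below 0, with a median of -0.42, against -0.05 for all genes. Before injury 11 of the 36 were also lower in old cells and none was higher, beside 4.70% and 3.04% of all genes. The median there was -0.36, although some members, such as Cenpe and Cenpf, were near background in uninjured cells. Aurka, the spindle kinase, measured 9.22, 9.26 and 9.40 in old arrays, against 9.92, 10.07 and 10.03 in young arrays. Mki67, the proliferation marker, differed by -0.21 and was not called, and none of the 37 DNA replication genes was called, with a median of -0.10. Against young YFP-sorted cells 1 mitosis gene was called lower in old cells in place of 6, with Cenpf at -0.35 and Nusap1 at -0.35 there, while the median of the list was -0.33. The count of calls thus depended on which young cells were compared, and the list's median moved little. The calls of Hmmr, Nusap1 and Bora, which were just past the fold threshold, were lost without the first old array, at -0.57, -0.57 and -0.54, and also without the second old array for Nusap1 (-0.58) and without the third young array for Bora (-0.56). In young cells Aurka was at 8.86, 10.01 and 9.72 at 36 h, 60 h and 84 h.

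Promoters of 3 genes that fell are shown, with a CHR element (TTTGAA, found in genes of the G2 and M phases) for Depdc1a, the E-box CAGCTG bound by myogenic factors for Chrng, and the MEF2 consensus for Ttn in capitals, over the same 200 bases.
Depdc1a, chr3:159495233-159495432, plus strand: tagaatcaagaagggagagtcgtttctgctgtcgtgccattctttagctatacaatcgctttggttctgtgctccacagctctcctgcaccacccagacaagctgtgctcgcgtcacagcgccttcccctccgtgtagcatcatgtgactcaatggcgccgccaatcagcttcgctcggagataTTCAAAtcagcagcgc
Chrng, chr1:87205611-87205810, plus strand: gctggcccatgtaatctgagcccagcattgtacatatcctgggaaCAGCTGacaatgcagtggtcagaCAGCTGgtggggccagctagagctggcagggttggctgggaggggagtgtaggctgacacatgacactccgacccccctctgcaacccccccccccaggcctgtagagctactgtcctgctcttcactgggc
Ttn, chr2:76982548-76982747, minus strand: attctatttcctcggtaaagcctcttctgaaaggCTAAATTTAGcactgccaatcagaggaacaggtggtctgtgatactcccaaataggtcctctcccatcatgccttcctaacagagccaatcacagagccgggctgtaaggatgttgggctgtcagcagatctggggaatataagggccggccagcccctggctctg
The match began 16 bases before the start in Depdc1a and 166 bases before it in Ttn. In Chrng 2 matches began 155 and 132 bases before the start. None of these matches was overlapped by another searched motif. The shown bases of Depdc1a also held 1 AP-1 match, and those of Mmp3 1 CHR match, neither in capitals. In windows of 250 before to 50 after the start, the CHR element was in 26 of 31 mitosis list genes with a promoter in the table, against 15.2% of all tested genes. The E-box was in 22 of 100 genes that fell and also in 139 of 707 genes that rose (19.7%), against 15.9% of all. The MEF2 consensus was in 1 of the 100 genes that fell, against 0.546% of all.

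Few genes of the histone and Polycomb lists were called. Histone marks at lysines of H3 set which genes of quiescent cells stay silent, and Polycomb enzymes write the silencing mark at H3K27. Kdm6b, an H3K27 demethylase, rose by 0.67, with 10.55, 10.56 and 10.63 in old arrays, against 9.81, 9.88 and 10.05 in young arrays, and it was 0.66 higher in old cells before injury too. Ezh2, the H3K27 methyltransferase, measured 11.12, 11.10 and 11.18 in old arrays, against 11.35, 11.42 and 11.42 in young arrays, a difference of -0.27 under the fold threshold. The 31 measured replication-dependent histone genes had a median of -0.06 and a range of -0.45 to 0.59, and only H3c15 was called, at a level near background in both groups. Its difference of 0.59 was 0.52 to 0.54 and not called without the first old, the first young or the third young array. Before injury 6 of the 31 were lower in old cells, beside 4.70% of all genes. None of the 37 measured Hox genes was called, with differences from -0.38 to 0.14. Of 229 measured transcription factors that the study listed with both histone marks, 7 rose (Mkx, Ebf1, Egr2, Nr4a3, Atf3, Fli1 and Irf5) and 3 fell (Lef1, Sox11 and Tead4), with Irf5 (0.52) lost without the second young or the third old array and Lef1 (-0.58) without the first young array. Over all genes 4.75% rose and 0.657% fell. The list was drawn up by the study from cells of the same kind and is not independent of them.

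Signalling, stress and metabolic lists were mixed. Of 34 genes of TGF-beta, BMP and activin signalling 9 rose, led by Inhba (2.00), which encodes a subunit of activin A, an inhibitor of muscle growth, and Tgfbr3 (1.60). Of 31 FGF, JAK-STAT and p38 genes 6 rose, with Osmr at 1.54, Stat3 at 1.01 and Fgf2 at 0.91. In the insulin-like growth factor list Igf1 rose by 1.10, although it was 1.16 lower in old cells before injury, a change of 2.25 (SE 0.081, adjusted p = 9.43e-17). Of 29 immediate early and heat shock genes 12 rose, among them Fos (0.78), Atf3 (0.89) and Ier3 (1.48), which sorting and dissociation are also known to induce. Against young YFP-sorted cells 4 of the 29 rose, and Fos and Atf3, at 0.36 and 0.54, were not among them. Of 25 lysosome and autophagy genes 12 rose, with Ctss, a cathepsin of antigen-presenting cells, at 1.60 and Ctsb at 1.12, and 6 of the 25 rose against young YFP-sorted cells, where Ctss was at 0.51 and not called. In metabolism, the lactate exporter Slc16a3 and the haem oxygenase Hmox1 rose by 1.46 and 1.17. Of 63 oxidative phosphorylation genes 1 fell and all 63 differences were below 0, with a median of -0.26, against -0.05 for all genes. Before injury 9 of the 63 were lower in old cells, beside 4.70% of all genes, with a median of -0.32. At 60 h none of the 41 ribosomal protein genes was called, with a median of -0.02, and none of 31 ribosome biogenesis or 21 cholesterol genes. In other lists 2 of 22 p53 targets, 5 of 28 antioxidant genes and 3 of 17 circadian genes rose. Of 23 glycolytic genes 4 rose and 1 fell, and of 30 Wnt genes 1 rose and 2 fell. Against young VCAM-sorted cells at 60 h, 4.75% of all genes rose and 0.657% fell.

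Complement and MHC class II genes held some of the larger rises, and the part of the macrophage markers in this was not tested. Of 23 complement genes 11 rose, C7 by 2.56 and C1qb by 1.67, and of 9 measured MHC class II genes 4 rose, H2-Aa, H2-Ab1, H2-Eb1 and Cd74. Of 10 measured MHC class I genes 2 rose, with a median of 0.22. H2-Aa measured 9.65, 9.55 and 9.74 in old arrays, against 6.88, 6.90 and 6.97 in young arrays. Cd74, the invariant chain, rose by 2.42. The mean of H2-Aa was 9.65 in old cells at 60 h, against 8.82 in young cells at 36 h, and that of Cd74 was 9.12, against 8.03.

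Of 302 microRNA genes with a probe set 7 rose and 4 fell, beside 4.75% and 0.657% of all genes, and 4 of the 11 were near background in both groups. These probe sets read RNA of the gene or its precursor and not the mature microRNA. All 11 matched RefSeq mature sequences, and 4 are shown with the seed (bases 2 to 8) in capitals. Mir15b and Mir16-2, neighbours on chromosome 3, fell together and give mature forms with the same seed. Mir31, which fell, and Mir29a, which rose, have seeds that differ from that one and from each other.
mmu-miR-15b-5p, chr3:69009775-69009796, plus strand: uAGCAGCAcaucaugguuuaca
mmu-miR-16-5p, chr3:69009918-69009939, plus strand: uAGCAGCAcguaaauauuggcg
mmu-miR-31-5p, chr4:88910614-88910635, minus strand: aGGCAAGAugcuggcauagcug
mmu-miR-29a-3p, chr6:31062673-31062694, minus strand: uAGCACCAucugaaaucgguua
Mir15b measured 6.09, 5.94 and 6.18 in old arrays, against 6.78, 7.13 and 7.07 in young arrays, and it was 0.89 lower in old cells before injury as well. Mir16-2 fell by 0.65 with both groups near background, and Mir31, which targets Myf5 in quiescent cells, fell by 0.83. Mir29a, known for its matrix gene targets, measured 6.68, 6.55 and 6.66 in old arrays, against 5.71, 5.79 and 5.71 in young arrays. The old level of Mir15b and the young level of Mir29a were near background. In the imprinted cluster on chromosome 12, Meg3 rose by 1.04 and Mir380, Mir329 and Mir300 by 0.89, 0.74 and 0.62, and the call of Mir300 was lost without the second old array (0.55) or the third young array (0.54). Against young YFP-sorted cells Mir15b, Mir16-2 and Mir31 were at -0.42, -0.11 and -0.22, and Mir329 and Mir300 at 0.58 and 0.25, and none of these 5 was called.

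The old cells at 60 h were then set beside the young time course. The young YFP-sorted cells share no array with the old and young VCAM-sorted groups, and in them 1711 genes (8.58%) were higher and 1740 (8.73%) lower at 36 h than at 60 h. Of the 947 genes that rose in old cells, 758 (80.0%) were among those higher at 36 h, which is 44.3% of that list, and none was among those lower at 36 h. Of the 131 that fell, 109 (83.2%) were lower at 36 h, which is 6.26% of that list, and none was higher. The median difference between 36 h and 60 h was 1.19 for the rises and -1.02 for the falls, against -0.04 for all genes. For 772 of the 947 rises the mean of old cells at 60 h was below that of young VCAM-sorted cells at 36 h. The same count was not made over all genes, so this number alone shows no excess. Macrophage, tenocyte and fibroblast sums, given above, were also highest in young cells at 36 h, and their part in this pattern was not tested. Xist averaged 11.15 at 36 h and 10.68 at 60 h in YFP-sorted cells, against 5.15 in old and 5.30 in young VCAM-sorted cells at 60 h, so by this measure the sex of the mice differed between the sorts, and its part in comparisons across sorts was not tested.

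**Figure D4:**
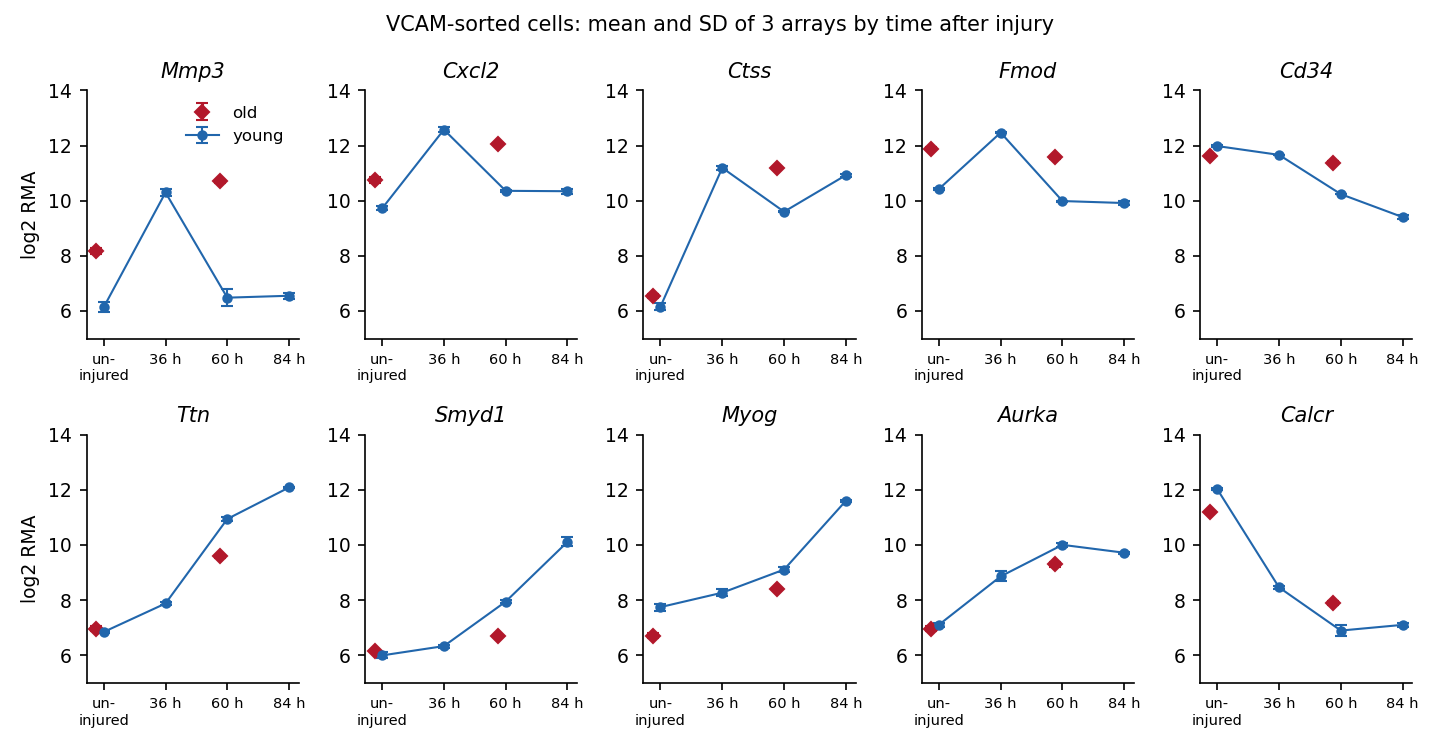
Log2 RMA means and SD of 3 arrays for 10 genes in VCAM-sorted cells, of old mice (red diamonds) uninjured and at 60 h and of young mice (blue) uninjured and at 36 h, 60 h and 84 h (evenly spaced). Old cells at 60 h lie above young cells at 60 h for Mmp3, Cxcl2, Ctss, Fmod, Cd34 and Calcr, and below them for Ttn, Smyd1, Myog and Aurka.

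Over both young sorts, the 3 old arrays lay above all 6 young arrays for 2578 of all genes (12.9%) and below them for 2747 (13.8%). The rises, all of which already lay above the 3 VCAM-sorted young arrays, held 920 such genes, and the falls 124. Among the exceptions was Eda2r, a p53 target of the TNF receptor family, which was 0.84 higher than in young VCAM-sorted cells, but at 10.24 in old and 10.25 in YFP-sorted young cells.

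Age differences at 60 h and before injury overlapped in part. In uninjured cells 606 genes (3.04%) rose and 938 (4.70%) fell in old cells, measured on other arrays. Rises in both states numbered 215, which is 22.7% of the 60 h rises and 35.5% of the uninjured rises. Falls in both states numbered 28, which is 21.4% of the 60 h falls and 2.99% of the uninjured falls. Another 41 genes rose at 60 h and fell before injury, and 2 fell at 60 h and rose before injury. The Pearson correlation of the age differences across genes, which are not independent, was 0.31. The rises with the largest values in both states, chosen after their values were seen, were C7 (2.56 at 60 h and 2.28 before injury), Mmp3, Serpina3n (2.33 and 2.03), Ifi207 (1.96 and 2.53), Prg4 (1.80 and 1.85) and Apod (1.76 in each). The acute phase gene Serpina3n was at 10.95 in old and 8.62 in young cells at 60 h.

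**Figure D5:**
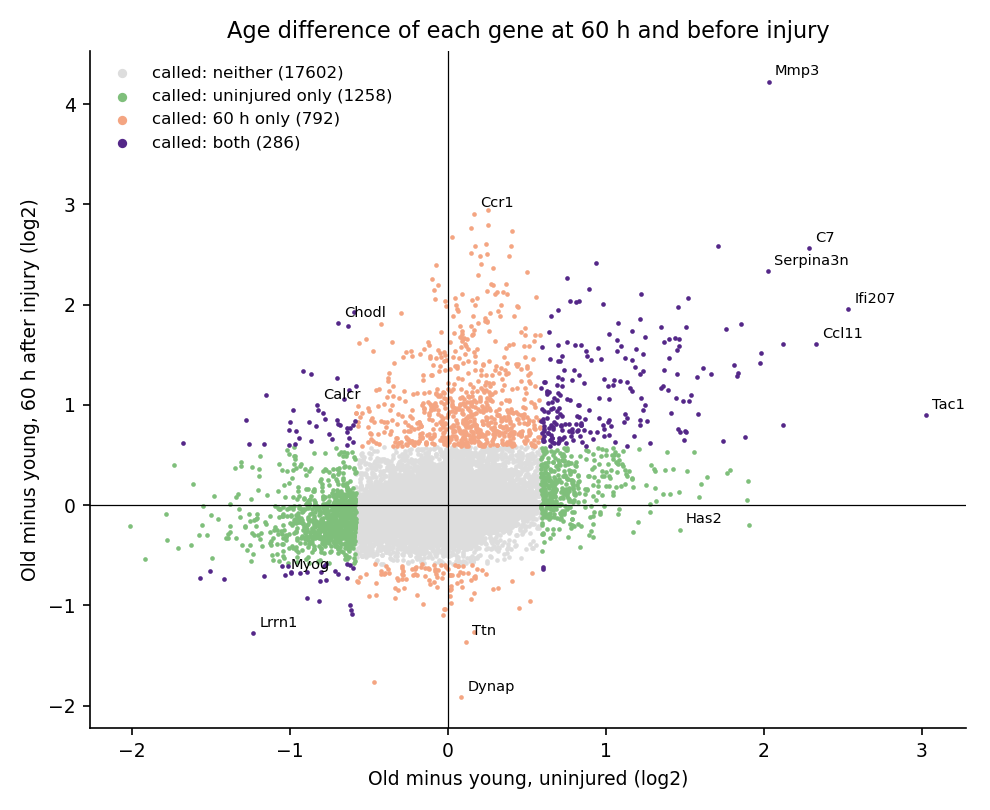
Each point is a gene, with the old minus young difference in uninjured cells on the x axis and at 60 h on the y axis, both log2, coloured by where it was called. Purple points were called in both states, with Mmp3, C7 and Ifi207 high in each, and Chodl and Calcr higher in old cells at 60 h but lower before injury.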

How the data were processed

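The authors prepared cDNA from total RNA of sorted cells, hybridised it to Affymetrix Mouse Gene 1.0 ST arrays, and made the deposited log2 values with RMA in Affymetrix Expression Console. RMA corrects background and brings all arrays to one distribution, so a shift shared by most genes would not be seen. Of 35556 probe sets, 21789 had 1 gene symbol, 1621 several and 12146 none. Symbols were updated through Entrez IDs for 21698 of them, and the brightest probe set stood for each of 998 genes with several. Nothing in the table went unused (0 columns). Depth has no meaning here, and the number of arrays limits the precision.

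The 30 arrays were fitted in limma 3.58.1 (R 4.3.3) as 10 group means with 20 residual degrees of freedom. Tests were two-sided, with Benjamini-Hochberg adjustment over all 19938 genes, and a call needed an adjusted p under 0.05 and a fold of at least 1.5. A simulation with 200 changed genes was used to check the code of the test. After group means were taken out, same-numbered arrays correlated above 0.1 in 27 of 135 pairs. Their mean was 0.035, against -0.018 for other numbers. Between old and young 60 h arrays, same-numbered pairs ran from -0.008 to 0.31, and other numbers averaged -0.073. Numbers were not taken as pairs, and a fit with a replicate block is given below. Alternatives varied the scaling, filter, fold, variance model, probe sets, young group and arrays.

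Genes named with values were the 20 largest rises and falls without overlap, called members of gene lists, genes of the study, sort and sex-linked markers, and the 10 largest changes of the age difference in each direction. Members and lists were chosen with earlier results of these data known. Values of members that were not called, the microRNA genes, and genes named as alike in both states were chosen after their values were seen, as were the comparison of YFP-sorted cells at 36 h with 60 h and the count outside all 6 young arrays. The comparison of YFP-sorted cells at 84 h with 60 h was fitted too and is not used, since Xist averaged 5.12 at 84 h and 10.68 at 60 h in them. A list symbol was never matched through a synonym where it is itself a current symbol. Promoter and microRNA sequences are from RefSeq (GRCm38.p6), with the first of several promoters used for 4163 genes.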

Additional observations from a re-analysis of the deposited data

Results flagged for a closer look

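A test of the difference between the age effects at 60 h and in uninjured cells picked out 1358 genes with a higher age difference at 60 h and 430 with a lower one. The 10 largest upward changes were those of Ccr1 (2.74), Clec4e (2.69), Clec4n (2.66), Ccl6 (2.62), Il1b (2.54), Abca8a (2.52), Chodl (2.51), Cytip (2.48), Ednrb (2.42) and F13a1 (2.41) on the log2 scale. Ccr1, Clec4e, Clec4n, Ccl6, Il1b and Cytip were near background in uninjured cells of both ages (levels of 6.51 in old and 6.48 in young), where no age difference could be seen, so their values restate the difference at 60 h and their order carries no more. Abca8a, Chodl and Ednrb were above background at both ages and in both states, and were lower in old cells before injury.

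The 10 largest downward changes were those of Tac1 (-2.13), Igkv4-91 (-2.10), Dynap (-1.996), Vaultrc5 (-1.84), Has2 (-1.71), Trank1 (-1.66), BC023105 (-1.51), Ttn (-1.47), Tnnt3 (-1.47) and Atp1b1 (-1.47). For Igkv4-91, Vaultrc5, Has2, Trank1 and BC023105 the age difference lay in uninjured cells, at 1.90, 1.89, 1.47, 1.90 and 1.59, and none of them was called at 60 h. Before injury Igkv4-91 and BC023105 were near background at both ages and Trank1 in young cells, so these sizes are not fixed. Tac1, the substance P precursor, was higher in old cells in both states, but its young levels, 5.50 at 60 h and 4.62 before injury, were near background, and so the sizes of its differences and their change are not fixed either. Dynap was near background before injury at both ages. The causes were not tested.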

How the results depend on the processing

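Of the results for the named genes under the alternatives, 2894 of 3088 kept their direction and their side of the thresholds. A pair of directions turned, both with YFP-sorted in place of VCAM-sorted young cells, for Eda2r (-0.0045) and the Y-linked Eif2s3y (1.14). The counts were 947 rises and 131 falls at 60 h. Without a fold threshold they were 2837 and 2731, with a fold of 2 they were 395 and 12, and with limma's treat against the fold 557 and 23. Centring gave 209 falls. Leaving out 1 array gave 915 to 985 rises and 111 to 165 falls. For uninjured cells these settings gave 3323 and 4248, 152 and 129, and 227 and 314, and leaving out 1 array gave 575 to 656 and 882 to 1074. For the change of the age difference they gave 3731 and 2518, 431 and 61, and 530 and 78, with 646 downward after quantile normalization, 742 with centring, and 1269 to 1465 upward and 413 to 480 downward without 1 array. The replicate block gave 947 rises and 131 falls, 606 and 938 in uninjured cells, and changed no call. With both young groups pooled the counts were 855 and 132. Causes of these shifts were not tested, other than that a fold threshold removes small differences.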
